A study of Mus musculus with 5 samples.

Results

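The genes described here encode the enzymes that bring fatty acids into mitochondria, shorten them and burn ketone bodies and acetate. A list of 36 such genes was matched by symbol to the array annotation, and 34 of them had a probe set, out of 19505 genes named on the array. Etfb, a subunit of the electron transfer flavoprotein, and Acsl3, an acyl-CoA synthetase, were not matched under a current or older symbol, gene ID or accession and are not analysed here. No member had more than 1 probe set.

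The cells were 3T3-L1, a mouse fibroblast line that turns into fat cells in culture. Every sample spent 4 days in basal medium and 4 days with insulin (5 µg/mL), dexamethasone (1 µM) and IBMX (0.5 mM), followed by 2 days with that insulin dose and no other inducer, 1 day in basal medium and 72 h in RPMI-1640 with 10% serum. In the exposed group (3 arrays) MM.1S cells, a human multiple myeloma line, shared that last medium across a membrane with 0.4 µm pores. The control group (2 arrays) had the same medium without myeloma cells, so the comparison is of mature adipocytes with and without myeloma cells across the membrane. Factors released by the myeloma cells and other changes they made to the shared medium, such as use of nutrients, cannot be told apart. All samples are of 1 cell line, with no genetic change named in the labels, and nothing says that separate cultures stand behind the replicates. A p-value here weighs a difference against the spread of these arrays only, and that spread may be technical.

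Values are log2 RMA expression values from 1 array of each sample, and differences are exposed minus control on that log2 scale from limma, given with their unadjusted 95% interval. Adjusted p-values are adjusted over all 22206 probe sets. The number of arrays limits the precision, and the table has no detection calls. Array medians lay between 4.80 and 4.88. Adipocyte markers were present: the fatty acid carrier gene Fabp4 read between 12.34 and 12.41 and the adipogenic factor gene Pparg between 10.95 and 11.05 over the 5 arrays, and the 8 measured adipocyte markers had summed levels of 81.2 to 82.4 on exposed and 81.8 to 82.0 on control arrays. The sums hide opposite differences, both at a limma adjusted p of 0.93. Retn, an adipokine gene, was higher on all exposed arrays, by 0.46 (0.06 to 0.86). Cebpa, a further adipogenic factor gene, read 5.88 to 6.40 and was lower on all exposed arrays, by -0.24 (-0.64 to 0.16). The groups did not overlap for 1 higher and 1 lower of the 8 markers, against 17.3% of all probe sets in either direction. Markers of preadipocytes and fibroblasts were present too, with mean levels per gene of 8.52 to 8.65 over the arrays, among them Dlk1, a gene of preadipocytes, at 10.23 to 10.68 and the filament gene Vim at 12.26 to 12.35. Dlk1 was lower on all exposed arrays, by -0.28 (-0.60 to 0.05, limma adjusted p 0.93). It was the 1 of 6 measured markers of this list without overlap, against 17.3% of all probe sets. Cd34, on the same list, was dim at 3.37 to 3.71. These levels do not set a degree of maturity. The brown fat marker Ucp1 read 2.40 to 2.71. Mean levels per gene of macrophage, skeletal muscle, hepatocyte and plasma cell markers lay between 3.06 and 3.98 on every array, though the plasma cell list's Sdc1, a syndecan gene, read 7.26 to 7.81 and the macrophage list's Lyz2, a lysozyme gene, 4.82 to 5.20. The array carries mouse probes, so these levels do not tell whether human myeloma RNA was present. In RNA from whole cultures, fewer cells of a type and less RNA per cell cannot be told apart.

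As background, long-chain fatty acids are joined to coenzyme A, handed to carnitine by CPT1 in the outer mitochondrial membrane and handed back by CPT2 on the inner side. Each round of beta-oxidation then removes an acetyl-CoA through a dehydrogenase, a hydratase, a further dehydrogenase and a thiolase, with electrons leaving through the electron transfer flavoprotein. White adipocytes mainly store and release fatty acids, but their mitochondria hold the whole pathway, and many of its genes are targets of PPAR nuclear receptors.

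None of the 34 genes differed between exposed and control arrays by the test. limma called 0 of 34 at an adjusted p under 0.05 (0% of all probe sets were called), with member adjusted p-values from 0.93 to 1, and 0 of 34 had an unadjusted p under 0.05, where 3.49% of all probe sets did. The fit with a variance trend and robust prior also called 0 members, and 0 had an unadjusted p under 0.05 there. In mean, 15 members were higher and 19 lower on exposed arrays, and 49.9% of all probe sets were higher. The median difference was -0.021 over the members and -0.0004 over all probe sets. Differences ran from -0.37 for Hadh to 0.29 for Eci1, and the interval excluded a 2-fold difference in either direction for 33 of 34 members (92.9% of all probe sets), Hadh being the exception. The half-width of the interval, which is not adjusted for the number of probe sets, had a median of 0.38. Smaller shifts were not detectable with these arrays, and larger ones could also go uncalled. Prkaa2, a regulator described below, differed by -0.61 with a limma adjusted p of 0.93.

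**Figure D1:**
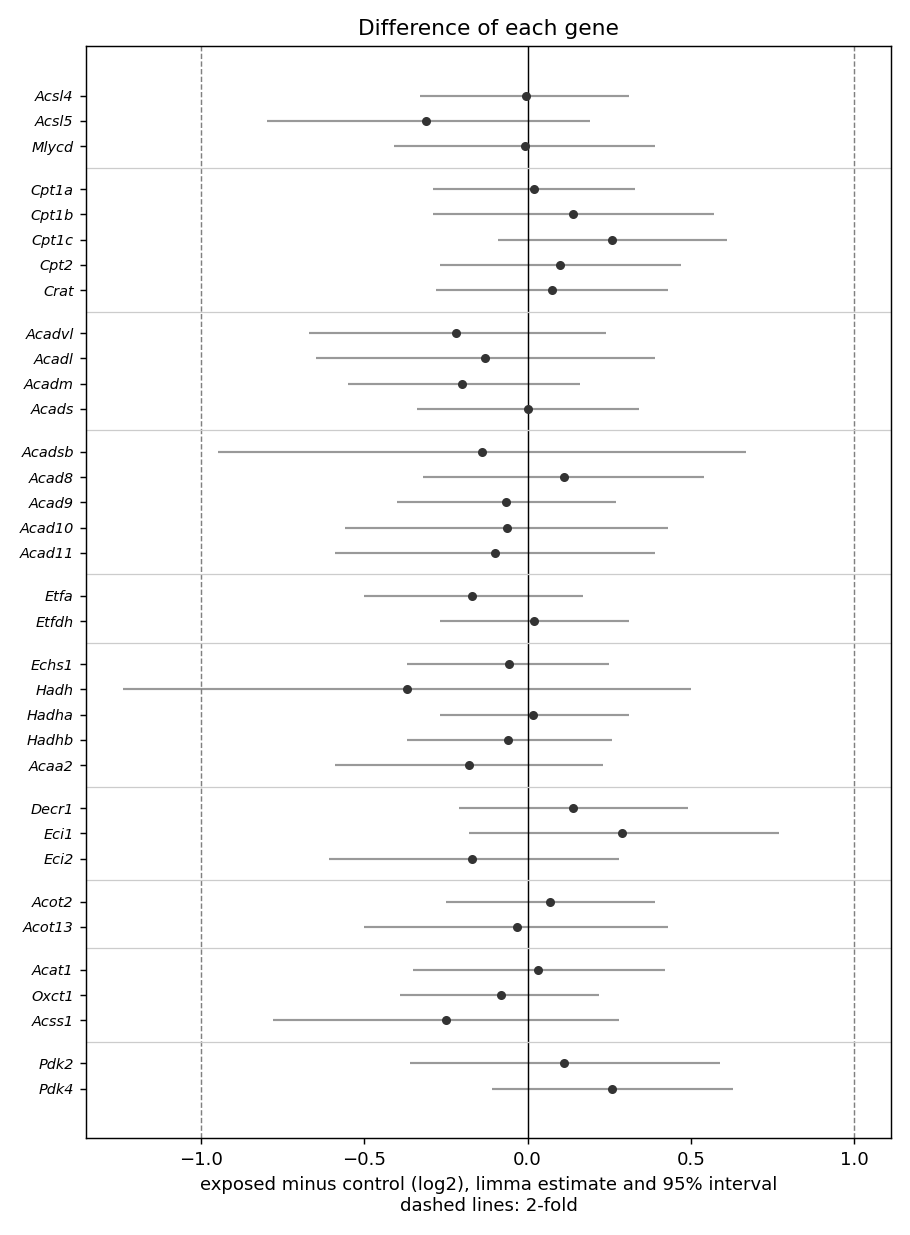
Difference exposed minus control (log2, x axis) of each of the 34 genes, in pathway order from top to bottom; points are limma estimates, bars are 95% intervals and dashed lines mark 2-fold. Every bar crosses 0, and the bar of Hadh, from -1.24 to 0.50, alone reaches past a dashed line.

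Exposed and control arrays did not overlap for 4 members. Cpt1c and Pdk4 were higher on all 3 exposed arrays than on both control arrays (8.50% of all probe sets were), and Acadm and Etfa were lower on all of them (8.84% of all probe sets). The 4 of 34 compare with 17.3% of all probe sets in either direction, so separation of the groups was no more frequent here than elsewhere on the array.

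The genes that activate fatty acids and lift the block on their entry had lower means on exposed arrays, by amounts within the spread. Acsl5, an acyl-CoA synthetase found on mitochondria and endoplasmic reticulum, read 6.58, 7.01 and 6.77 on exposed arrays 1 to 3 and 7.33 and 6.85 on control arrays 1 and 2. Control array 1 alone was high, and the other control array lay among the exposed ones. Its difference was -0.31 (-0.80 to 0.19; limma adjusted p 0.93), shrinking to -0.067 when control array 1 was left out. Acsl4, which prefers arachidonic acid, stayed between 8.49 and 8.72 and differed by -0.0061 (-0.33 to 0.31). Mlycd, which destroys malonyl-CoA, the inhibitor of CPT1, was dim, at 4.32, 4.32 and 4.15 against 4.47 and 4.06, and its values lay across each other.

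The carnitine acyltransferases belong to a family that moves acyl groups between coenzyme A and carnitine. Their mean was higher on exposed arrays for 5 of 5 genes, with a median difference of 0.10, and 0 of 5 passed. Cpt1a, the liver form of the rate-setting enzyme, read 5.57, 5.40 and 5.40 on exposed and 5.40 and 5.48 on control arrays. That is a range of 0.17 over the 5 arrays, and 9.0% of the brighter probe sets (those with a mean no lower than the median of all) had a narrower one. Cpt1b, the muscle form, read 4.81, 4.79 and 4.85 on exposed arrays, and the control arrays lay on both sides of them at 4.42 and 4.93. Cpt1c, the brain form, which sits in the endoplasmic reticulum and has little acyltransferase activity, was at 5.38, 5.52 and 5.60 against 5.36 and 5.13. Its groups were separated by the narrow step between exposed array 1 and control array 1, and the difference was 0.26 (-0.09 to 0.61; limma adjusted p 0.93). Cpt2, the inner enzyme of the shuttle, averaged 8.58 ± 0.16 (SD, n = 3) with myeloma cells and 8.48 ± 0.14 (SD, n = 2) without. Crat, which moves acetyl groups between carnitine and coenzyme A, was at 9.26 ± 0.04 (SD, n = 3) against 9.19 ± 0.24 (SD, n = 2). For Cpt1b, Cpt2 and Crat it was control array 1 that read lowest. Without it the differences of Cpt1b and Crat turned to -0.12 and -0.096 and that of Cpt2 was 0.0041, so the common direction of the carnitine genes rested on that array.

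The first dehydrogenation step showed lower means on exposed arrays for 3 of its 4 straight-chain enzymes, and 0 of 4 passed. Acadvl, for very long chains, read 6.93, 7.33 and 6.80 on exposed arrays and 7.19 and 7.29 on control arrays. Exposed array 2 was the highest of all and the other exposed arrays were the lowest. Acadl, for long chains, read 7.94, 8.21 and 7.56 against 8.15 and 7.92, again with exposed array 2 on top and exposed array 3 at the bottom. Acadm, the medium-chain enzyme, was at 8.49, 8.51 and 8.22 against 8.64 and 8.57. All exposed arrays were below both controls, with a difference of -0.20 (-0.55 to 0.16; limma adjusted p 0.93) that was -0.10 without exposed array 3. Acads, for short chains, averaged 7.21 ± 0.14 (SD, n = 3) and 7.21 ± 0.09 (SD, n = 2) in the exposed and control groups, with an interval from -0.34 to 0.34.

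Among the other members of the acyl-CoA dehydrogenase family, Acadsb and Acad8 serve amino acid breakdown and Acad9 serves complex I assembly. Acadsb, which acts on short branched chains from isoleucine, read 8.85, 8.97 and 7.88 on exposed arrays and 8.66 and 8.76 on control arrays. Exposed array 3 lay 0.78 below the next array while the other 4 spanned 0.31, and the difference of -0.14 turned to 0.20 without it. Acad9, which helps to assemble respiratory complex I, was at 6.89, 6.92 and 6.66 against 6.91 and 6.87. Here, too, exposed array 3 was lowest, and the other 4 arrays spanned 0.049. Acad8, the isobutyryl-CoA dehydrogenase of valine breakdown, differed by 0.11 (-0.32 to 0.54), with 0.0042 left without exposed array 2 and 0.24 without exposed array 1. Acad10 and Acad11, less studied family members, differed by -0.064 and -0.097. Their ranges over the 5 arrays were 0.63 and 0.59, wider than the group differences.

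Electrons from these dehydrogenases pass through the electron transfer flavoprotein to its membrane oxidoreductase. Etfa, the alpha subunit, read 9.85, 9.99 and 9.71 on exposed and 10.02 and 10.01 on control arrays. The control arrays were nearly equal (SD 0.0078, n = 2) and exposed array 2 almost reached them. The difference was -0.17 (-0.50 to 0.17; limma adjusted p 0.93). Etfdh, the oxidoreductase, was the steadiest member, at 7.22, 7.20 and 7.27 against 7.21 and 7.21. Of the brighter probe sets only 1.2% had a narrower range than its 0.068, so the acceptor of this chain read almost the same on every array.

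The later steps of the cycle hold the member that varied most and several that hardly varied. Hadh, the 3-hydroxyacyl-CoA dehydrogenase for short and medium chains, read 9.59, 9.61 and 8.47 on exposed arrays 1 to 3 and 9.60 and 9.59 on control arrays 1 and 2. The other 4 arrays lay within 0.022 of each other and exposed array 3 was 1.11 below the next, more than 2-fold lower. The difference of -0.37 (-1.24 to 0.50; limma adjusted p 0.93) was 0.003 without exposed array 3. In all, 35 of 22206 probe sets had an array this far from the next, 9 of them among the brighter ones, and in 5 of those 9 exposed array 3 was the low one. They were Hadh, Rab5b, Homer3, 4930404N11Rik and a probe set without a symbol, and each was singled out after its values were seen, Hadh included, since it was known as a single-array outlier when the genes were chosen. These counts therefore describe the reading and do not support it. Echs1, the hydratase before Hadh, was at 8.37, 8.36 and 8.19 against 8.35 and 8.37. It showed the same array low by 0.17 with the other 4 within 0.017, a far smaller step than in Hadh. Acaa2, the thiolase that closes the round, was at 7.69 ± 0.20 (SD, n = 3) against 7.87 ± 0.16 (SD, n = 2).

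Hadha and Hadhb encode the alpha and beta subunits of the mitochondrial trifunctional protein, which runs the last 3 steps for long chains. Their starts face away from each other with 272 bases between them, and that stretch is shown here because both subunit genes are transcribed away from it. The stretch is chr5:30154981-30155252 of GRCm38.p6 (RefSeq), plus strand, with the Hadha start to its left and the Hadhb start to its right, and capitals mark GC boxes (GGGCGG or its reverse complement CCGCCC).
Hadha-Hadhb: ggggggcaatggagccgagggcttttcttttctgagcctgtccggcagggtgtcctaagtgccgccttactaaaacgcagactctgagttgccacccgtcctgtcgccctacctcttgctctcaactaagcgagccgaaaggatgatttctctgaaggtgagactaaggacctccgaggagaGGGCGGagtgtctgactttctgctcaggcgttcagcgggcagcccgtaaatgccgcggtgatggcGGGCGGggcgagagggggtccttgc
It holds 2 GC boxes, both on the Hadhb side, and is 60.3% G and C. Hadha read 9.47, 9.37 and 9.42 on exposed and 9.41 and 9.40 on control arrays. Hadhb read 8.57, 8.38 and 8.53 against 8.51 and 8.60. On exposed array 2 both subunit genes had their lowest value, and on exposed array 3, where Hadh fell away, neither left the range of the other arrays. Their differences were 0.016 (-0.27 to 0.31) and -0.059 (-0.37 to 0.26).

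**Figure D2:**
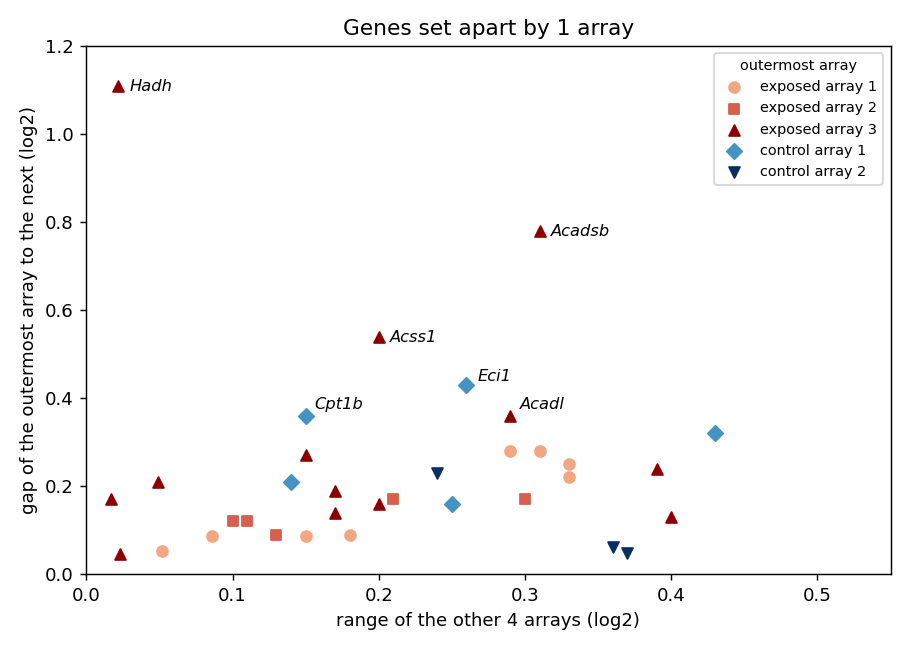
For each of the 34 genes, the distance of its outermost array to the next array (log2, y axis) against the range of the other 4 arrays (log2, x axis); symbols show which array was outermost. Hadh stands alone at a distance of 1.11 with the other arrays within 0.022, followed by Acadsb and Acss1, all with exposed array 3 outermost.

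The enzymes that prepare unsaturated fatty acids for the cycle split in direction. Eci1, an enoyl-CoA isomerase, read 7.75, 7.89 and 7.63 on exposed arrays and 7.20 and 7.73 on control arrays. Control array 1 was low by 0.43 and the other control lay among the exposed arrays. The difference of 0.29 (-0.18 to 0.77; limma adjusted p 0.93) was 0.025 without that array. Eci2, the related isomerase, read 7.40, 7.73 and 7.81 against 7.98 and 7.64, so control array 1, the lowest for Eci1, was here the highest. The Eci2 difference of -0.17 was 0.001 without it. Decr1, the dienoyl-CoA reductase, was at 6.50 ± 0.12 (SD, n = 3) against 6.36 ± 0.15 (SD, n = 2), a difference of 0.14 (-0.21 to 0.49) that was 0.036 without control array 1 and 0.25 without control array 2.

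Thioesterases, which release free fatty acids from coenzyme A, differed little between the groups. Acot2, of the mitochondrial matrix, was at 7.70 ± 0.09 (SD, n = 3) against 7.63 ± 0.10 (SD, n = 2). Acot13, a small thioesterase associated with mitochondria, read 8.53, 8.84 and 9.10 against 8.81 and 8.90. The exposed arrays of Acot13 lay on both sides of the controls, with an SD of 0.29 for a difference of -0.033.

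Ketone and acetate use showed no difference past the test either. Oxct1, which activates acetoacetate and is the entry to ketone body use, read 10.70, 10.57 and 10.66 on exposed and 10.78 and 10.66 on control arrays, at the 98.4th percentile of all probe sets. Its interval of -0.39 to 0.22 limits a change of this gene more tightly than a 2-fold bound. Acat1, the thiolase that splits acetoacetyl-CoA, read 7.70, 7.73 and 8.06 against 7.87 and 7.73, and exposed array 3 was here the highest. Acss1, the mitochondrial acetate-activating enzyme, was dim and read 3.72, 3.64 and 3.10 against 3.83 and 3.64. Exposed array 3 was low by 0.54, and the difference of -0.25 was -0.054 without it. RMA compresses differences between dim signals, which bears on Acss1, Mlycd and Cpt1b, the 3 members below the median level of the array.

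The pyruvate dehydrogenase kinases switch off the use of pyruvate and so leave acetyl-CoA supply to fatty acids. Pdk4, the isoform induced by fasting and glucocorticoids, read 7.04, 6.74 and 7.08 on exposed arrays and 6.72 and 6.67 on control arrays. Exposed array 2 lay almost level with control array 1, while the other exposed arrays were clearly above, and the difference was 0.26 (-0.11 to 0.63; limma adjusted p 0.93), with 0.20 to 0.37 when any of the 5 arrays was left out. Pdk2, the broadly expressed isoform, read 7.83, 8.32 and 8.38 against 8.05 and 8.08, with exposed arrays on both sides of the controls. The other kinases of the family are not on the list of members and were added after their values were seen. Pdk1, a hypoxia-responsive isoform, read 9.04, 9.19 and 8.60 against 9.41 and 9.19, a difference of -0.36 (-0.85 to 0.14). All its exposed arrays were below both controls (8.84% of all probe sets were), exposed array 2 by less than the rounding of these values. Pdk3 differed by -0.10 (-0.56 to 0.36). The family thus held means of either sign, and 0 of its 4 genes passed.

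**Figure D3:**
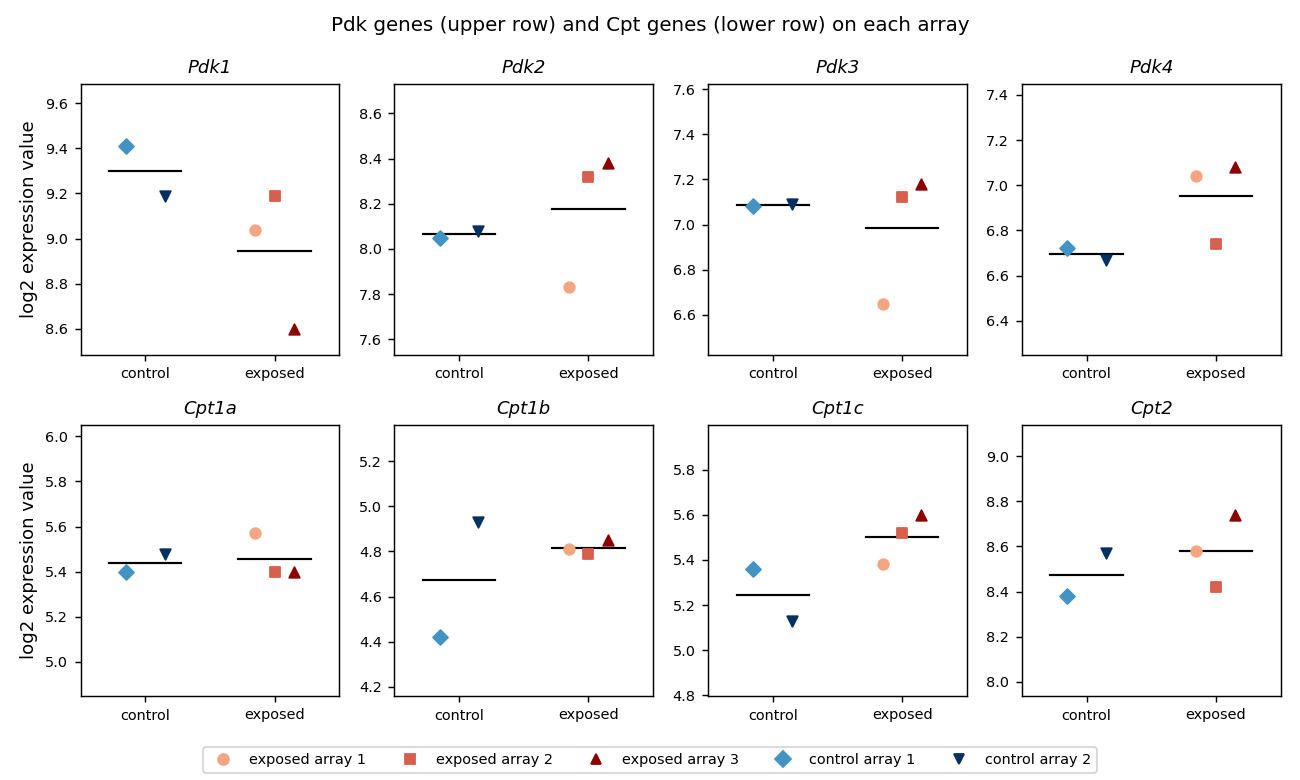
Log2 expression values (y axis, each panel 1.2 units high) of the Pdk genes (upper row) and Cpt genes (lower row) on control and exposed arrays; points are single arrays and lines are group means. Pdk4 and Cpt1c are the genes of these rows whose exposed points all lie above both control points. For Pdk1 all exposed points lie below both control points, exposed array 2 only just.

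The arrays differed in where the members lay, and the groups were not set apart. Exposed array 3 held the lowest value of 13 of 34 members (38.2%) and the highest of 8. Of the brighter probe sets it was lowest for 25.6% and highest for 25.7%. Exposed array 2 held the highest value of 10 of 34 members, where it was highest for 18.3% of the brighter probe sets. The median deviation of the members from their own mean was 0.025, 0.042 and -0.047 on exposed arrays 1 to 3 and 0.0067 and 0.032 on control arrays 1 and 2, so the exposed arrays lay on both sides of the controls. A single array at least 0.5 from the next was found for 3 of 34 members (12.1% of all probe sets), namely Hadh, Acadsb and Acss1, each with exposed array 3 low, and one at least 1 away for 1 of 34, Hadh (0.396% of all probe sets), a gap known when the genes were chosen. On that array the droplet coat gene Plin1 also read 9.08, against 9.77 to 9.90 elsewhere. The adipocyte markers Cebpa (5.88), Cidec (9.80) and Pparg (10.95) had their lowest values there too. The adiponectin gene Adipoq, at 11.73, and Retn, at 9.22, had their highest, while the markers Fabp4 and Lpl lay between the other arrays. The part of that array's other differences in the low readings was not tested. The typical member differed by 0.185 between exposed arrays 1 and 3 and by 0.241 between exposed arrays 2 and 3, whereas exposed arrays 1 and 2 each lay within 0.0891 of control array 2 (medians of absolute log2 differences over the 34 members). Exposed array 3 lay at 0.176 from control array 2. Control array 1 gave wider distances, 0.173 to exposed array 1, 0.137 to exposed array 2 and 0.271 to exposed array 3, where exposed arrays 1 and 2 were 0.153 apart. Over all probe sets exposed arrays 1 and 3 were each 0.188 from exposed array 2 and lay farther from control array 2, at 0.198 and 0.204. Exposed array 2, however, lay nearer to control arrays 1 and 2, at 0.151 and 0.152. Exposed arrays 1 and 3 were the widest pair, at 0.229. The distances thus gave no single order of the groups, and their differences were not tested.

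**Figure D4:**
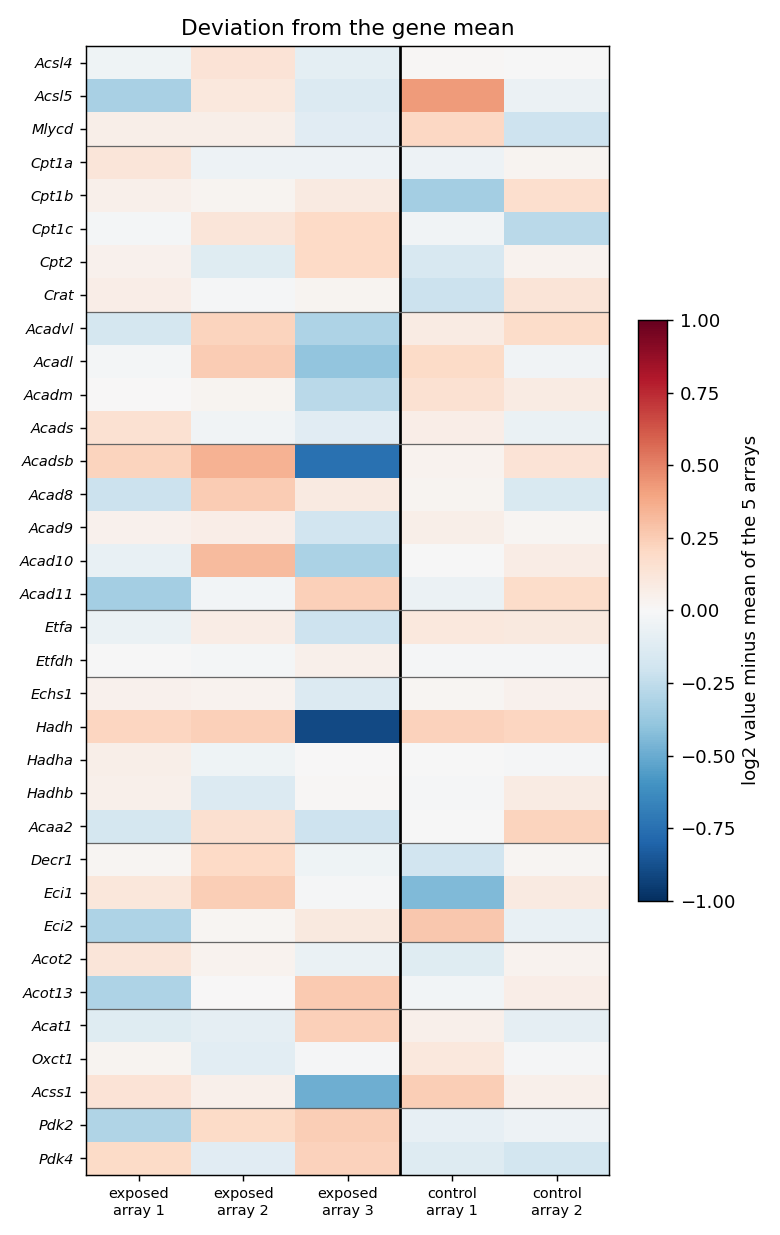
Deviation of each log2 value from the mean of the gene over the 5 arrays (colour, red higher and blue lower), with genes in rows in pathway order and arrays in columns, exposed to the left of the black line. The darkest cells are Hadh and Acadsb on exposed array 3, and no column pair separates the groups along the whole pathway.

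**Figure D5:**
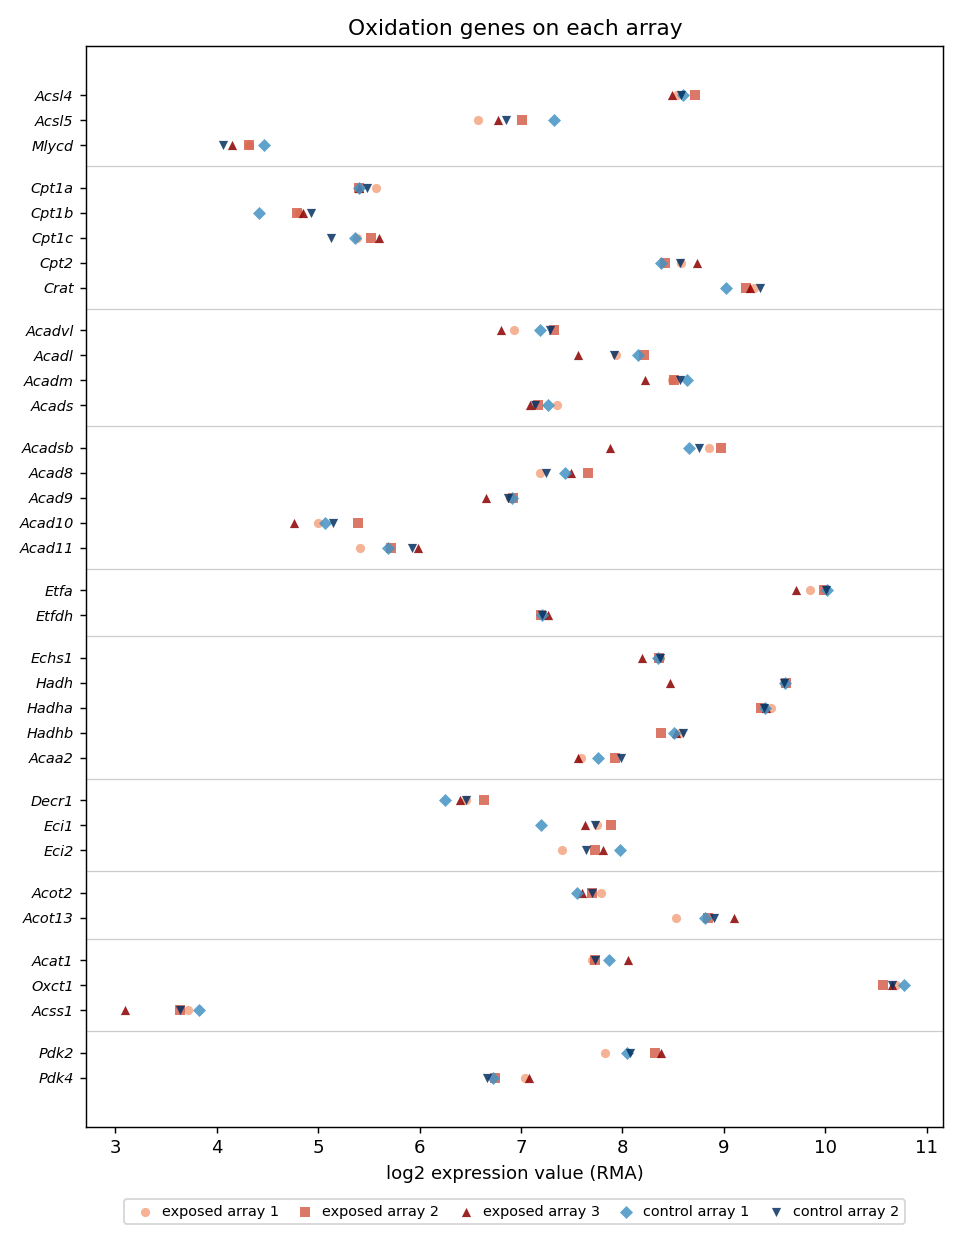
Log2 expression values (x axis) of the 34 genes on each of the 5 arrays (symbols), in pathway order with lines between the roles. The range over the arrays has a median of 0.42 and is at least 0.5 for 13 of the 34 genes, widest for Hadh at 1.14 and Acadsb at 1.09; levels of different genes also carry probe effects and are not compared.

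The genes around the pathway, from a list of transporters, further mitochondrial enzymes, peroxisomal enzymes and regulators, were likewise not called. Of 58 listed genes 48 had a probe set, 18 with a higher and 30 with a lower mean on exposed arrays (median -0.05), where 49.9% of all probe sets were higher. limma called 0 of the 48, with 1 at an unadjusted p under 0.05 (3.49% of all probe sets). The groups did not overlap for 4 higher and 3 lower genes of the 48, against 17.3% of all probe sets. Acsl1 is among those not analysed here. Slc25a20, the carnitine-acylcarnitine carrier between Cpt1 and Cpt2, read 5.33, 5.41 and 5.79 against 5.39 and 5.06, a difference of 0.28 (-0.19 to 0.75). Slc27a1, a fatty acid transport protein of the cell surface, was lower on all exposed arrays, at 6.91, 7.09 and 6.74 against 7.21 and 7.24. Its difference was -0.31 (-0.67 to 0.05; limma adjusted p 0.93). In the mitochondrial list Bdh1, the hydroxybutyrate dehydrogenase of ketone metabolism, was dim and differed by -0.32 (-0.72 to 0.09). Pccb, a subunit of propionyl-CoA carboxylase, differed by -0.31 (-0.70 to 0.07). The groups overlapped for both genes, and control array 2 alone was high, by 0.42 for Bdh1 and 0.30 for Pccb. Of 11 peroxisomal genes 4 had a higher mean, with the thioesterase gene Acot8 at 0.41 (-0.04 to 0.87) and the isomerase gene Eci3 at 0.21. For Acot8 control array 1 was low by 0.55, and control array 2 read 5.81 against 5.91 to 6.01 on exposed arrays.

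Regulators of the pathway showed the widest differences of that list, and 0 of 19 passed. Nrip1, a corepressor of oxidative genes, read 5.17, 5.70 and 5.00 on exposed and 5.94 and 5.72 on control arrays. Exposed array 2 lay just below control array 2, and the difference was -0.54 (-1.10 to 0.02; limma adjusted p 0.93). Prkaa2, a catalytic subunit of AMP-activated kinase, was dim and differed by -0.61 (-1.21 to -0.02; limma adjusted p 0.93) with overlapping groups. Acacb, the acetyl-CoA carboxylase that makes malonyl-CoA at mitochondria, read 5.77, 5.70 and 5.61 against 5.17 and 5.56. It was higher on every exposed array, with a difference of 0.33 (-0.06 to 0.71, limma adjusted p 0.93) and control array 1 low by 0.39. Ppara, the nuclear receptor that drives these genes in liver, was dim, and exposed array 3 alone was high at 4.07 where the other 4 averaged 3.32. The coactivator gene Ppargc1a differed by -0.026 (-0.54 to 0.48).

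The RefSeq promoter table (GRCm38.p6, 250 bases before to 50 after each start) held 27 of the 34 members, with 28 promoters. A search on both strands asked what these windows share. The GC box GGGCGG was in 17 of 28 (60.7%), against 35.7% of all 32851 promoters, and TATAAA, the TATA box, in 0 of 28, against 13.6%. The windows of Hadha and Hadhb overlap, so the 28 are not all separate sequences. A GC box in the part they share can count for both. CCAAT was in 13 of 28 (46.4%), against 37.4%. AGGTCA, the core motif of PPAR and related nuclear receptors, was in 5 of 28 (17.9%), against 16.3% of all promoters, and a pair of such cores in the same direction with 1 base between them in 0 of 28, against 0.0396%. These matches describe letters only. The 5 promoters with AGGTCA belong to genes at different steps and are shown so that their contexts can be compared, each in the direction of its gene, with the core or its reverse complement TGACCT in capitals. They are Acadvl at chr11:70015490-70015535 (minus strand), Acadm at chr3:153944867-153944893 (minus), Cpt1a at chr19:3323187-3323232 (plus), Cpt1c at chr7:44974972-44975017 (minus) and Echs1 at chr7:140116479-140116524 (minus).
Acadvl: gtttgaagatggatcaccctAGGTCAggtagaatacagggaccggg
Acadm: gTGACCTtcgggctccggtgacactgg
Cpt1a: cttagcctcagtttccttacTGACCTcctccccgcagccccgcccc
Cpt1c: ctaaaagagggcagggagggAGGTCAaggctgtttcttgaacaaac
Echs1: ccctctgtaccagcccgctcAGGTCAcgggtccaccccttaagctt
The core ends 81 bases before the start in Acadvl, 88 in Cpt1a, 77 in Echs1, 140 in Cpt1c and 243 in Acadm, where it lies at the edge of the window. These 5 genes differed by -0.22, 0.019, -0.058, 0.26 and -0.20 in the order Acadvl, Cpt1a, Echs1, Cpt1c and Acadm, without a common direction.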

How the data were processed

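RNA of 5 samples was measured on Affymetrix Clariom S mouse arrays, from 50 ng per array. The authors deposited log2 expression values, for which the submitters' processing notes name RMA and Partek. Their versions and the build behind the annotation are not given in the sources used here. Groups and replicate numbers came from the sample descriptions. Probe sets were named through the platform annotation (19572 of 22206 with 1 symbol, 0 with several, 2634 with none). The members and lists were chosen with earlier results of these data known. All members with a probe set are named, and from the wider pathway list the 2 genes with the widest difference in each of its 4 parts and a few fixed genes (among them Acsl1, Slc25a20, Ppara, Ppargc1a and Acacb; 1 other is not reported here). The groups were compared in R 4.3.3 by limma 3.58.1 (lmFit and eBayes with a group term alone, two-sided p-values, Benjamini-Hochberg over all probe sets, called under 0.05). On simulated data with known changes, the step was checked for its mean estimated change. That check does not set how often a true change would be called. Residual degrees of freedom were 3 and the prior added 3.17. RMA's quantile step gives all arrays nearly the same distribution, so a shift of the whole transcriptome would not show. Alternatives were a filter on dim probe sets, another variance model, array weights, median centring, a replicate block and leaving out each array. Descriptions of gaps and ranges use all 5 arrays, and promoter letters were read from the RefSeq table.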

Additional observations from a re-analysis of the deposited data

How the results depend on the processing

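The count of probe sets called (0) and of members called (0) held under all 10 alternatives, and the lowest and highest counts of members at an unadjusted p under 0.05 with 1 array left out were 0 and 2 (Acadvl and Pdk4 without exposed array 2, Cpt1b and Eci1 without control array 2, none called). Leaving out a control array leaves a lone control, whose spread is taken from the exposed group. The median difference of the members was -0.021 and ranged from -0.041 to 0.015 with 1 array left out; it was 0.015 with the replicate block, -0.003 with array weights, -0.039 with median centring and -0.033 for the 31 members at or above the median level. Of the 34 members 16 kept their sign under all alternatives run and 18 did not. Keeping the sign did not mean a steady value: with 1 array left out, those 16 ranged from -0.55 to -0.067 (Acsl5), 0.14 to 0.37 (Cpt1c), 0.0041 to 0.20 (Cpt2), -0.37 to -0.11 (Acadvl), -0.25 to -0.10 (Acadm), 0.0042 to 0.24 (Acad8), -0.24 to -0.095 (Etfa), 0.00032 to 0.034 (Etfdh), -0.11 to -0.0031 (Hadhb), -0.30 to -0.066 (Acaa2), 0.036 to 0.25 (Decr1), 0.025 to 0.56 (Eci1), -0.14 to -0.021 (Oxct1), -0.37 to -0.054 (Acss1), 0.0095 to 0.29 (Pdk2) and 0.20 to 0.37 (Pdk4). The other 18 ranged as follows: Acsl4 from -0.073 to 0.039, Mlycd from -0.21 to 0.20, Cpt1a from -0.037 to 0.062, Cpt1b from -0.12 to 0.39, Crat from -0.096 to 0.25, Acadl from -0.28 to 0.04, Acads from -0.074 to 0.068, Acadsb from -0.34 to 0.20, Acad9 from -0.11 to 0.015, Acad10 from -0.23 to 0.08, Acad11 from -0.24 to 0.053, Echs1 from -0.091 to 0.0023, Hadh from -0.57 to 0.003, Hadha from -0.01 to 0.042, Eci2 from -0.33 to 0.001, Acot2 from -0.0037 to 0.14, Acot13 from -0.17 to 0.11 and Acat1 from -0.08 to 0.10. The replicate number as a block leaves exposed array 3 without a partner, and its construction gives the estimates without that array; same-numbered arrays did not deviate together (correlations of -0.0139 and -0.0318 over all probe sets), so the numbers are not taken as pairs. With that replicate block the sign turned for Acsl4 (0.039), Mlycd (0.047), Acadl (0.04), Acadsb (0.20), Acad9 (0.015), Acad10 (0.08), Echs1 (0.0023), Hadh (0.0029) and Acat1 (-0.08). Array weights turned Acsl4 (0.031), Mlycd (0.0064), Acads (-0.0078) and Acad10 (0.028), and median centring turned Acads (-0.016) and Hadha (-0.0017); the cause was not tested. The alternative of another probe set for a gene with several was not run, because no member has several. The table has no detection calls, so signal over background could not be set as a limit, and the number of arrays limits every value.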
